A study of Macaca fascicularis with 6 samples.

Results

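The proteasome genes described here are the 47 rows of the count table whose name begins with PSMA, PSMB, PSMC, PSMD, PSME, PSMF or PSMG followed by a digit, of 28164 rows in all. Of these, 46 name a subunit, an assembly chaperone or a regulator of the proteasome. They comprise 8 genes of the core alpha ring, 7 of the core beta ring, 4 inducible or thymic beta subunits, 5 ATPases and 10 non-ATPase subunits of the regulatory particle, 7 assembly chaperones, and 4 activator genes with 1 inhibitor. The remaining row, PSMC3IP, encodes a partner of the meiotic recombinases that only shares the prefix, and it is given apart. PSMD6, a subunit of the lid, was not analysed here. PSMC6, the sixth ATPase, is listed in the table under a LOC identifier and so falls outside the name rule. Its values are given beside the other ATPases.

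The libraries came from wild-type, untreated, stripped oocytes of the cynomolgus monkey (Macaca fascicularis), with 2 libraries in each of 3 groups. GV oocytes are immature cells arrested before the first meiotic division, with the nucleus (germinal vesicle) still visible. IVM MII oocytes had reached metaphase of the second meiotic division in vitro, and IVO MII oocytes had done so in vivo. How many oocytes and animals each library holds is not stated in the labels, so all p-values measure the spread between these libraries, which may be technical. Library totals ran from 27707021 to 35515139 counts. The 12 oocyte markers, among them zona pellucida genes ZP1 to ZP4, were all detected, with a summed level of 43006 to 48206 in GV, 21566 to 27356 in IVM MII and 21251 to 22446 in IVO MII. These and all levels below are scaled CPM, that is, CPM computed on the library total multiplied by its TMM factor. Of 10 cumulus and granulosa markers, 9 were in the table and 4 were tested. Their sum was 31.2 to 38.3 in GV, 78.9 to 80.2 in IVM MII and 34.2 to 51.3 in IVO MII, with FOXL2, INHA and PTX3 at 0 in every library. Of 9 theca, stroma and endothelium markers, 8 were in the table and 4 tested. They summed to 326 to 384 in GV, 150 to 159 in IVM MII and 83.1 to 86.6 in IVO MII, with VWF the largest in every library and LUM at 0. The 8 leukocyte markers, 2 of them tested, summed to 13.5 to 13.6, 5.85 to 6.18 and 4.38 to 7.38, with LAPTM5 and CD3E at 0.

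The proteasome is the protease that degrades proteins tagged with ubiquitin. Its core particle is a barrel of stacked rings: outer rings of alpha subunits that gate the entrance, and inner rings of beta subunits, 3 of which (PSMB5, PSMB6 and PSMB7) carry the catalytic sites. A regulatory particle, made of a base with a ring of ATPases and a lid, binds ubiquitinated substrate, removes the ubiquitin and unfolds and feeds the substrate into the core. In oocytes, proteasomal degradation of cyclin B and securin is part of the passage from the first to the second meiotic division, and in early development the proteasome takes part in the removal of maternal proteins.

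The summed level of the 46 proteasome genes overlapped between the 3 groups, while the sums of some subcomplexes moved apart. It came to 5957 and 7223 scaled CPM in GV, 5866 and 6598 in IVM MII, with 6714 and 6549 in IVO MII, or 0.557% to 0.714% of a library's counts, and the 3 ranges overlapped. The alpha ring sum went from 2882 and 3189 in GV to 3559 and 4310 in IVM MII, with 4656 and 4218 in IVO MII. The beta ring sum ran the other way, from 1544 and 2098 in GV to 701 and 767 in IVM MII, with 453 and 523 in IVO MII. A few genes carried much of these ring sums, and other members of each ring went the other way. The mean of PSMA7 was 1122 in GV, 1941 in IVM MII and 2050 in IVO MII. Those of PSMB1 were 787, 77.2 and 36.3, and those of PSMB7 428, 59.2 and 36.9. The 5 ATPases summed to 261 and 324 in GV, 110 and 90.8 in IVM MII, with 90.4 and 117 in IVO MII. In the beta ring the 3 groups did not overlap, and in the ATPases both MII groups lay below GV. The sums of the non-ATPases (553 to 834 over the 6 libraries), the assembly chaperones (591 to 733) and the activators with the inhibitor (107 to 151) overlapped between GV and IVM MII. In IVO MII the non-ATPase sums, 767 and 834, lay above those of the other 4 libraries. These sums were not tested. The levels are of RNA reverse transcribed from its poly(A) tail and are relative within a library. A change in these genes and a change in the rest of that RNA cannot be told apart. Neither can a change in the amount of an RNA and a change in its poly(A) tail. Nor can fewer cells of a type and less RNA per cell.

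**Figure D1:**
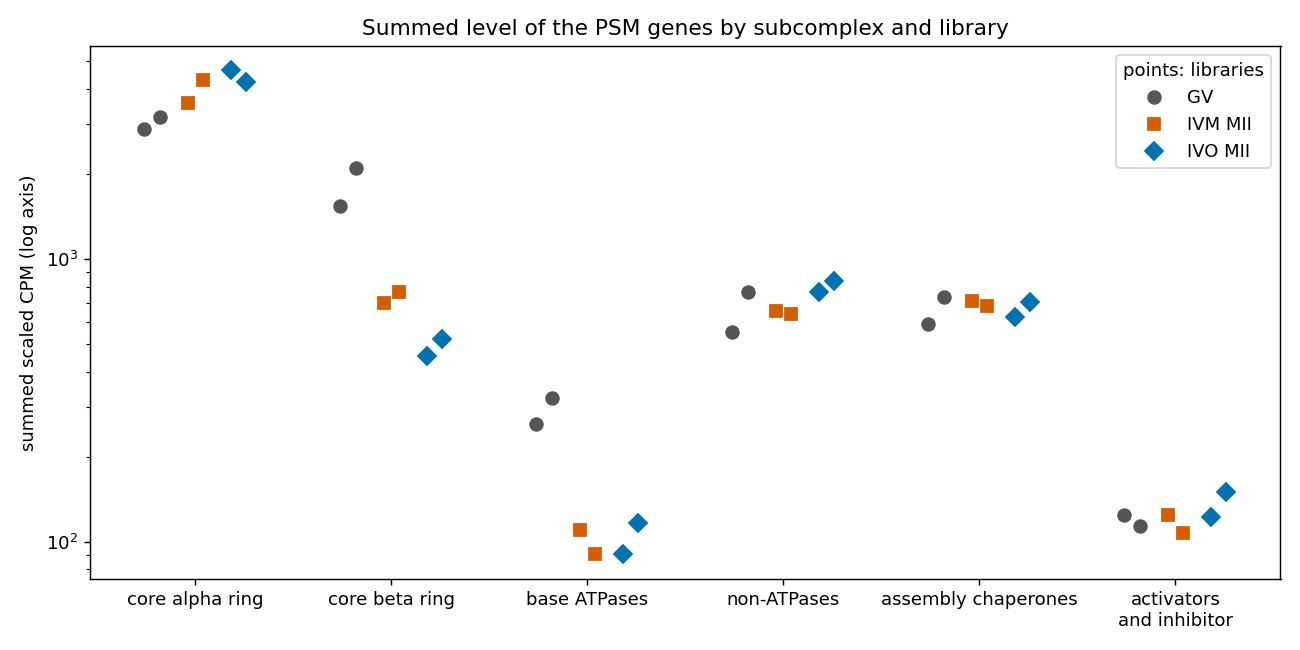
Summed level of the proteasome genes by subcomplex (horizontal axis) in scaled CPM (log axis), with a point for each of the 6 libraries, coloured by group. The alpha ring sums of both MII groups lie above the GV sums, and the beta ring and ATPase sums lie below them. The non-ATPase sums of IVO MII, 767 and 834, lie above those of the other 4 libraries.

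Of the 47 genes, 43 passed the filter on low counts and were tested. Those left out were PSMB8, PSMB10, PSMB11 and PSME2. All counts and shares of members include PSMC3IP, which was called once, lower in IVO MII against GV. By edgeR's quasi-likelihood test, with Benjamini-Hochberg adjusted p under 0.05 over all 15815 tested genes, 28 of the 43 changed in IVM MII against GV, 10 rising and 18 falling. That is 65.1% of the tested members, beside 50.3% of all tested genes (25.6% higher and 24.7% lower). In IVO MII against GV, 14 rose and 26 fell, 93.02% of the tested members, beside 58.5% of all tested genes (28.1% higher and 30.5% lower). The median log2 fold change of the tested members was -0.46 in IVM MII against GV and -1.32 in IVO MII against GV, while the medians over all tested genes were 0.06 and -0.07. Both of these comparisons use the same GV libraries, so their values are set side by side below and not as independent results. Between IVM MII and IVO MII, 7 members were higher in IVM MII and 2 lower, 20.9% of those tested, which is close to the 24.6% of all tested genes (14.3% higher and 10.3% lower). With library totals in place of TMM factors the count was 10 higher and 0 lower, beside 2803 higher and 894 lower over all tested genes. None of the 77 calls changed sign in any alternative computation. An offset that removes the trend of fold change with gene length moved 29 of the 40 called IVO MII against GV values by more than 1.5 times, all upward. With it the members' median was 0.03 in IVM MII against GV and -0.71 in IVO MII against GV. The medians over all tested genes were then 0.11 and 0.06. The members' counts were 11 higher and 17 lower in IVM MII against GV, and 16 higher and 19 lower in IVO MII against GV. Over all tested genes they were 4267 higher and 3670 lower, then 4860 higher and 4240 lower.

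**Figure D2:**
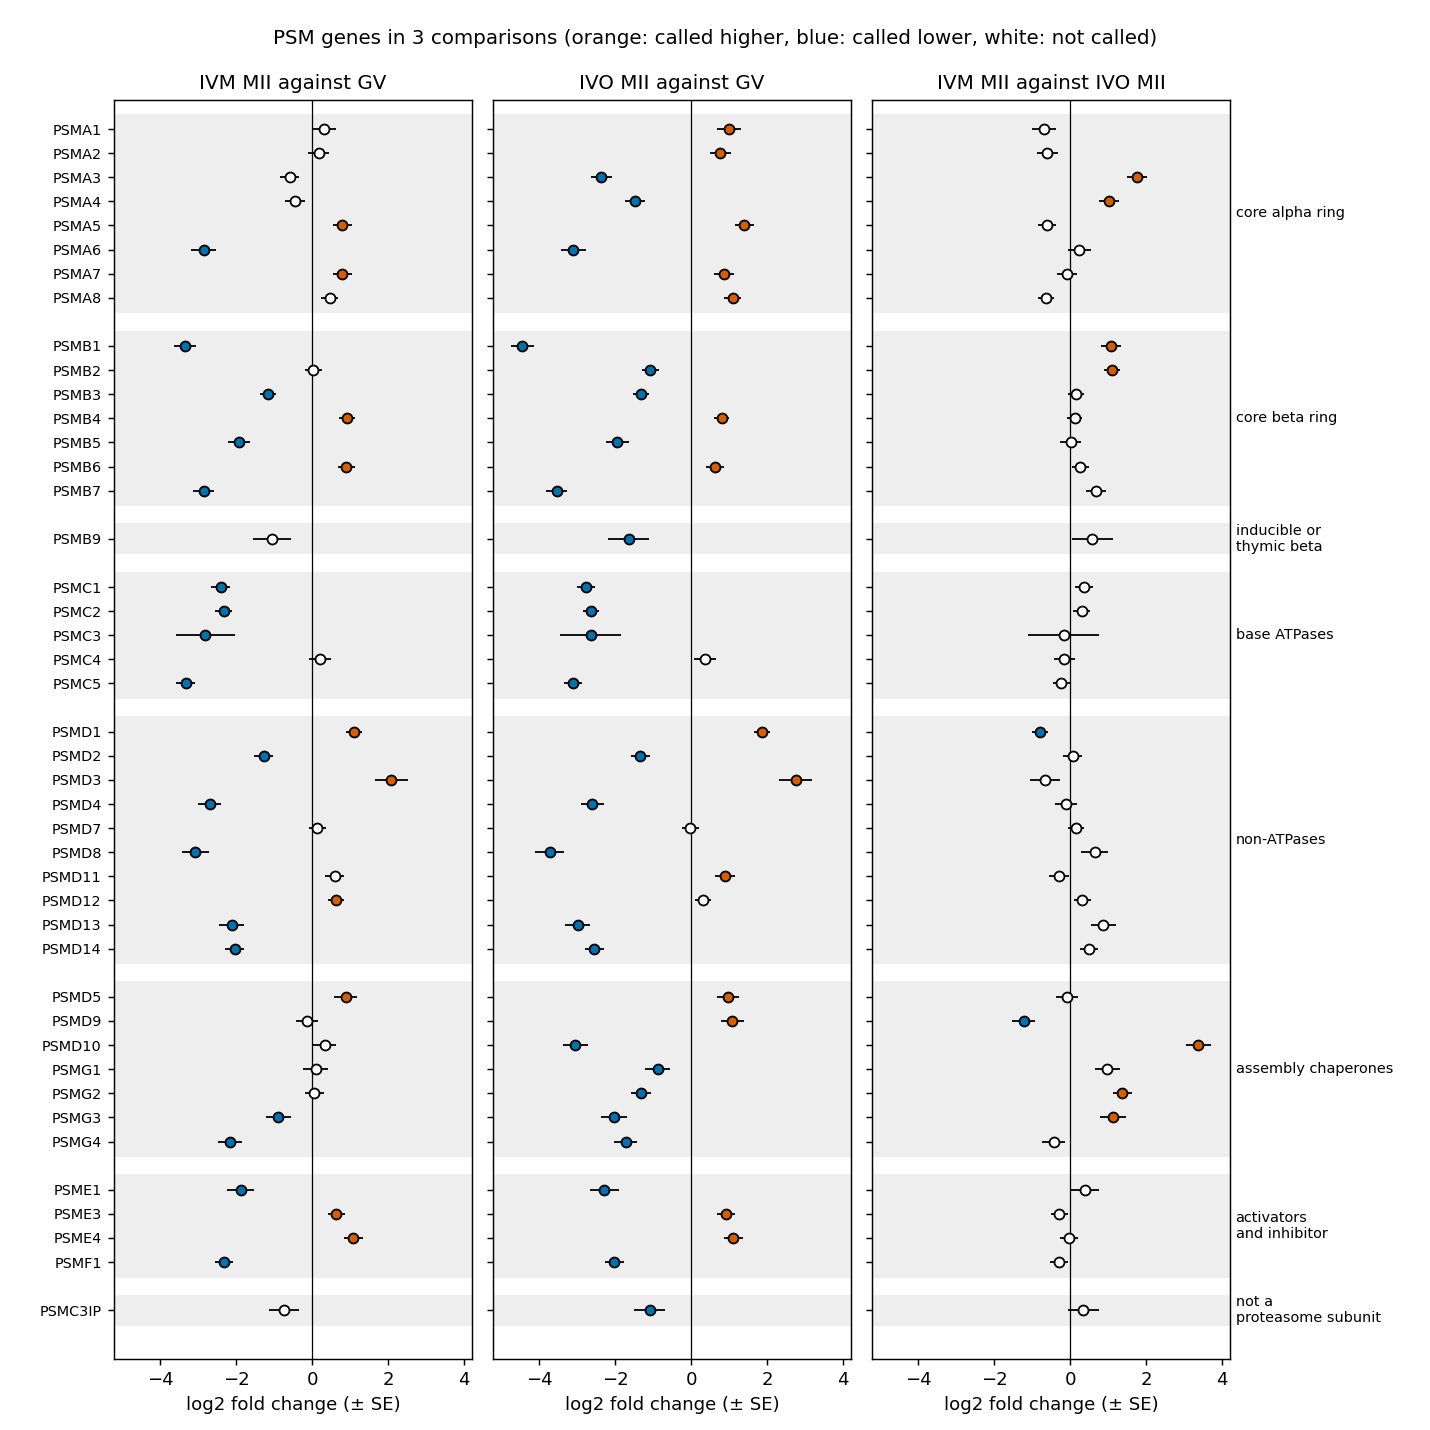
Log2 fold changes (horizontal axes, with the standard error of the fit) of the 43 tested genes in the 3 comparisons, grouped by subcomplex. Orange points were called higher and blue points lower in the group named first at an adjusted p under 0.05. In IVM MII against GV, most falls lie in the beta ring, the ATPases and part of the non-ATPases. In IVO MII against GV, 5 of the 7 assembly chaperones and 3 of the 8 alpha ring genes fall as well. Between the MII groups PSMD10 lies farthest from 0 at 3.37.

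The alpha ring held members that rose and members that fell. Of its 8 genes, 5 rose and 3 fell in IVO MII against GV, and 2 rose and 1 fell in IVM MII against GV. PSMA7 (chromosome 10, 94106115 to 94113190, coordinates of the macFas5 genome here and below), an alpha subunit, stood at 982 and 1262 scaled CPM in GV, 1885 and 1997 in IVM MII, with 1943 and 2157 in IVO MII. All 4 MII libraries lay above both GV libraries. Its log2 fold change was 0.79 ± 0.26 (SE) in IVM MII against GV (edgeR adjusted p = 0.0228) and 0.87 ± 0.26 in IVO MII against GV (adjusted p = 0.0120). PSMA5 stood at 400.1 and 423 in GV, 651 and 776 in IVM MII, with 1233 and 944 in IVO MII. None of its 3 groups overlapped, and the increases over GV were 0.79 ± 0.25 in IVM MII and 1.40 ± 0.25 in IVO MII. PSMA1 (15.3 and 17.3 in GV, 13.2 and 27.3 in IVM MII, 34.4 and 30.7 in IVO MII) rose in IVO MII by 1.00 ± 0.31, with the IVM MII libraries spanning the GV values. PSMA2 rose by 0.76 ± 0.27 in IVO MII, from 544 and 491 in GV to 1039 and 719, with 480 and 683 in IVM MII. The strict filter ended the calls of PSMA5 (0.52) and PSMA7 (0.51) in IVM MII and those of PSMA1 (0.66), PSMA2 (0.43) and PSMA7 (0.54) in IVO MII. Several of these calls also ended when a library was left out, in fits with fewer degrees of freedom. Those of PSMA5 and PSMA7 in IVM MII ended without GV replicate 1 (0.76 and 0.62), without GV replicate 2 (0.83 and 0.98) and without IVM MII replicate 2 (0.66 and 0.75). In IVO MII the call of PSMA7 ended without GV replicate 1 (0.70) or IVO MII replicate 2 (0.79), that of PSMA1 without GV replicate 1 (0.91), and that of PSMA2 without either GV replicate (0.84 and 0.69) or IVO MII replicate 1 (0.47). Without IVM MII replicate 1, PSMA1 rose in IVM MII as well, by 0.77 (adjusted p = 0.0468), and without IVM MII replicate 2 its value there was -0.30.

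PSMA8, the alpha subunit known from germ cells that takes the place of PSMA7 in the spermatoproteasome, was present in every library. It stood at 61.9 and 51.8 in GV, 71.3 and 85.4 in IVM MII, with 131 and 112 in IVO MII, and the 3 groups did not overlap. It rose in IVO MII against GV by 1.10 ± 0.22 (edgeR adjusted p = 0.00128), a call held in every alternative, while the value in IVM MII against GV was 0.46 ± 0.22 (adjusted p = 0.0985). It was called higher there too with library totals (0.75, adjusted p = 0.0137) and with the length offset (0.93, adjusted p = 0.00507). Between the MII groups PSMA8 was at -0.63 ± 0.22 in IVM MII against IVO MII (adjusted p = 0.0550), and DESeq2 called it lower (-0.70, adjusted p = 0.0219), as did RLE factors (-0.70) and the length offset (-0.91). Per kilobase of exon, the mean scaled CPM of PSMA8 was 47.2 in GV, 65.0 in IVM MII and 101 in IVO MII, beside 1086, 1879 and 1984 for PSMA7. The exons of PSMA8 in the annotation lie on chromosome 18 and on an unplaced sequence, and those of PSMA2 on chromosomes 3 and 10, so each row may join more than 1 locus.

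PSMA3, PSMA4 and PSMA6 were the alpha subunits that fell in IVO MII. PSMA6 (chromosome 7, 99223853 to 99266844) stood at 52.9 and 102 in GV, 10.2 and 11.2 in IVM MII, with 7.80 and 10.3 in IVO MII. It fell by 2.86 ± 0.32 on the log2 scale in IVM MII (edgeR adjusted p = 3.74e-05) with a value of -3.10 ± 0.32 in IVO MII (adjusted p = 1.62e-05), and both calls held in every alternative. PSMA3 (chromosome 7, 122522407 to 122549740) stood at 264 and 267 in GV, 133 and 218 in IVM MII, with 54.98 and 48.7 in IVO MII. PSMA4 stood at 562 and 575 in GV, 315 and 512 in IVM MII, with 213 and 196 in IVO MII. In both genes the IVM MII libraries lay between GV and IVO MII with no overlap. PSMA3 fell by 2.36 ± 0.27 in IVO MII against GV and PSMA4 by 1.48 ± 0.26, and both calls held in every alternative. Their values in IVM MII against GV were -0.60 ± 0.25 (adjusted p = 0.0684) and -0.46 ± 0.26 (adjusted p = 0.158). Both were called lower without IVM MII replicate 2, at -0.99 for PSMA3 and -0.85 for PSMA4, and with the strict filter, at -0.88 and -0.74. PSMA3 was also called by DESeq2 (-0.63) and with the compared libraries alone (-0.69), and the length offset put PSMA4 at 0.03.

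In the beta ring, PSMB4 and PSMB6 rose in both MII groups and PSMB1, PSMB3, PSMB5 and PSMB7 fell in both. PSMB1 (chromosome 4, 98230 to 118481), a non-catalytic beta subunit, stood at 636 and 937 in GV, 72.7 and 81.7 in IVM MII, with 30.6 and 42.0 in IVO MII. PSMB1 fell, with values of -3.35 ± 0.28 in IVM MII (10.2-fold lower, edgeR adjusted p = 5.84e-06) and -4.44 ± 0.30 in IVO MII (21.7-fold lower, adjusted p = 9.22e-07). PSMB7 (chromosome 15, 11693359 to 11755729), the subunit with trypsin-like activity, stood at 384 and 472 in GV, 60.1 and 58.3 in IVM MII, with 28.2 and 45.6 in IVO MII. It fell 7.23-fold in IVM MII and 11.6-fold in IVO MII, with log2 values of -2.85 ± 0.27 and -3.53 ± 0.28. PSMB5, the subunit with chymotrypsin-like activity that bortezomib binds, stood at 101 and 198 in GV, 41.7 and 37.1 in IVM MII, with 36.7 and 41.4 in IVO MII. Its log2 values were -1.92 ± 0.30 and -1.94 ± 0.30, and the MII groups overlapped. PSMB3 went from 52.8 and 53.7 in GV to 23.1 and 24.3 in IVM MII, with 21.2 and 21.7 in IVO MII, log2 values of -1.17 ± 0.21 and -1.31 ± 0.21. The length offset ended the call of PSMB3 in IVO MII (-0.43, adjusted p = 0.0898).

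The third catalytic subunit went the other way. PSMB6 (chromosome 16, 4851554 to 4853901), with caspase-like activity, stood at 84.9 and 107 in GV, 173 and 185 in IVM MII, with 129 and 167 in IVO MII. It rose by 0.90 ± 0.23 in IVM MII (edgeR adjusted p = 0.00698) and by 0.63 ± 0.23 in IVO MII (adjusted p = 0.0340). Its call in IVM MII ended without GV replicate 1 (0.74), and that in IVO MII without GV replicate 1 (0.47) or IVO MII replicate 2 (0.43) and with the strict filter (0.29). PSMB4, a non-catalytic beta subunit, stood at 46.1 and 47.6 in GV, 84.5 and 92.3 in IVM MII, with 80.6 and 82.4 in IVO MII. It rose by 0.92 ± 0.20 in IVM MII, in every alternative, and by 0.80 ± 0.20 in IVO MII, where the strict filter gave 0.47 (adjusted p = 0.0527). PSMB2 stood at 239 and 283 in GV, 246 and 288 in IVM MII, with 127 and 122 in IVO MII. Its IVM MII and GV ranges overlapped (0.03 ± 0.22, adjusted p = 0.910), while it fell by 1.07 ± 0.22 in IVO MII against GV (adjusted p = 0.00141), except with the length offset (-0.28).

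Levels of the core genes are compared with each other here per exon length. The aligner does not split reads over introns, and counts shared with paralogs or processed pseudogenes are uncertain, so these levels are approximate. The rows of PSMA2 and PSMA8 may join different loci, so their exon lengths are uncertain as well. In GV, PSMB1 was the highest of the 7 beta ring genes at 846 scaled CPM per kilobase, followed by PSMB7 at 417, with PSMB4 the lowest at 48.9. In IVM MII the highest were PSMB2 at 238 and PSMB6 at 207, and in IVO MII PSMB6 at 171 and PSMB2 at 111, while PSMB1 was at 83.0 and 39.1. PSMB5 was the lowest in both MII groups, at 23.3 and 23.1. The ratio of the highest to the lowest beta ring gene was 17.3 in GV, 10.2 in IVM MII and 7.40 in IVO MII. Among alpha ring genes PSMA7 was the highest gene in all 3 groups, and the ratio to the lowest (PSMA1 in GV, PSMA6 in both MII groups) was 112, 277 and 346. The beta ring genes lay closer together in MII and the alpha ring genes farther apart.

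**Figure D3:**
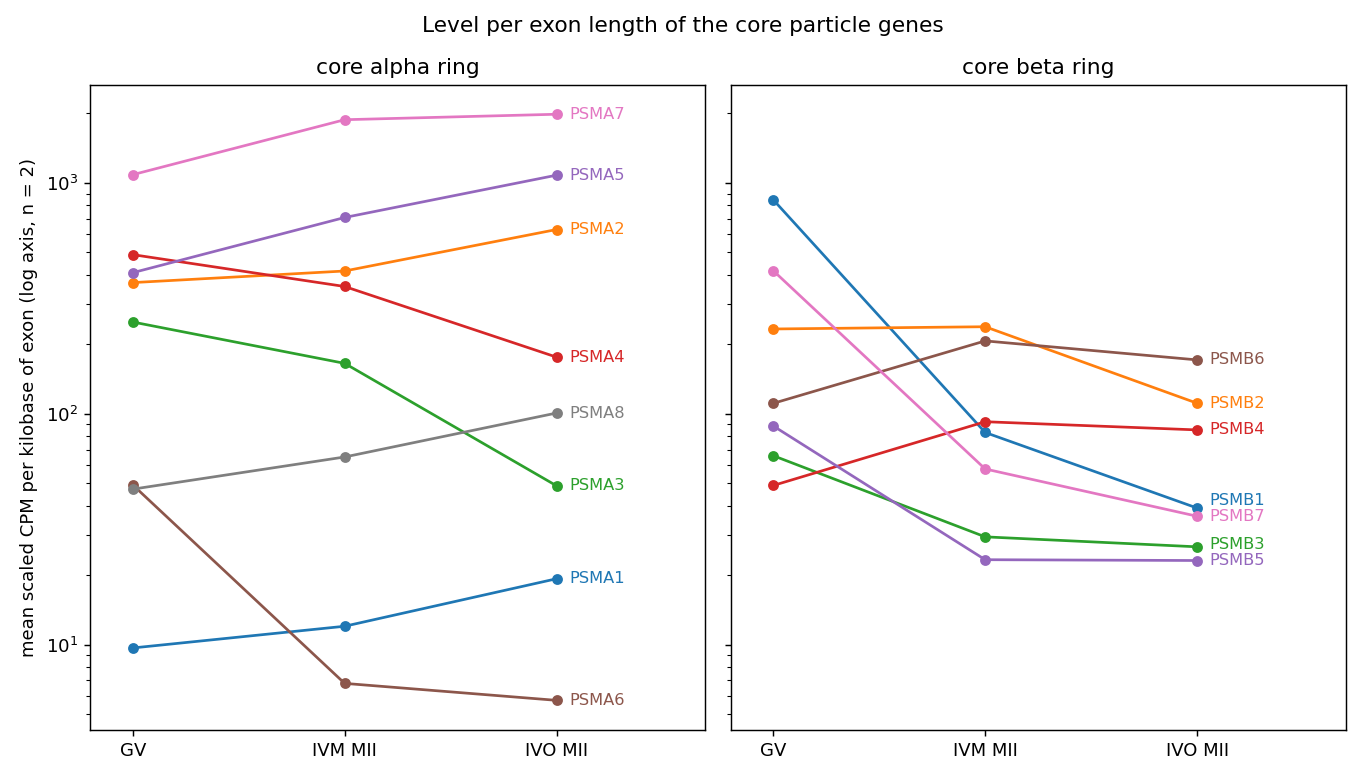
Mean level per kilobase of exon (log axis, n = 2 libraries) of the 8 alpha ring and 7 beta ring genes in the 3 groups, with a line for each gene. PSMA7 is the highest alpha ring gene throughout, and PSMB1 goes from 846 in GV to 39.1 in IVO MII.

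The inducible beta subunits, which replace the catalytic ones in the immunoproteasome, and the thymic subunit were near 0. PSMB9, the only one with enough counts to be tested, stood at 1.46 and 1.99 scaled CPM in GV, 0.810 and 0.852 in IVM MII, with 0.309 and 0.781 in IVO MII, on 8 to 59 counts a library. It fell by 1.64 ± 0.53 in IVO MII against GV (edgeR adjusted p = 0.0189), a call that ended without GV replicate 2 (-1.41), without IVO MII replicate 1 (-1.14) and with the length offset (-0.73), and the value without IVO MII replicate 2 was -2.47. In IVM MII it was at -1.05 ± 0.50 (adjusted p = 0.0987). PSMB8 had 1 and 2 counts in GV and 0 in the 4 MII libraries. PSMB10 had 6 and 5 counts in GV, 0 in both IVM MII libraries and 0 and 1 in IVO MII, and the thymic PSMB11 had 2 counts in GV replicate 2 and in IVM MII replicate 2 and 0 elsewhere. A count of 0 allows a level of up to 3 counts, 0.0694 to 0.116 scaled CPM depending on the library, for counting error only, and no fold is given for these 3 genes.

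Of the 5 ATPase genes of the regulatory particle, 4 fell in both MII groups. PSMC5 (chromosome 16, 61123764 to 61128666) stood at 89.8 and 107 in GV, 9.05 and 10.51 in IVM MII, with 11.05 and 11.9 in IVO MII. It fell 10.1-fold in IVM MII (-3.33 ± 0.24, edgeR adjusted p = 1.97e-06) and 8.57-fold in IVO MII (-3.10 ± 0.24). PSMC1 stood at 44.2 and 54.4 in GV, 8.89 and 9.69 in IVM MII, with 7.65 and 6.86 in IVO MII, with log2 fold changes of -2.41 ± 0.24 and -2.77 ± 0.25. PSMC2 stood at 83.5 and 94.0 in GV, 18.0 and 17.3 in IVM MII, with 14.3 and 14.3 in IVO MII, with log2 fold changes of -2.33 ± 0.22 and -2.63 ± 0.22. In each of these 3 genes all MII libraries lay below all GV libraries, and every alternative kept the call. PSMC4, by contrast, was not called. It stood at 42.9 and 67.0 in GV, 74.2 and 53.2 in IVM MII, with 57.3 and 83.7 in IVO MII, and the 3 groups overlapped. Its values against GV were 0.21 ± 0.28 and 0.36 ± 0.28 (adjusted p = 0.556 and 0.295), and the length offset called it higher in IVO MII (0.99). Per kilobase, mean scaled CPM of PSMC4 was 35.1 in GV, 40.6 in IVM MII and 45.0 in IVO MII, while that of PSMC5 was 59.5, 5.92 and 6.94.

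PSMC3 was low throughout, with 14 and 40 counts in GV, 6 and 4 in IVM MII, with 2 and 6 in IVO MII. It fell by 2.81 ± 0.78 in IVM MII (edgeR adjusted p = 0.0108), with a value of -2.64 ± 0.81 in IVO MII (adjusted p = 0.0143). Both calls ended without GV replicate 2 (-1.88 and -1.71), that in IVM MII also without IVM MII replicate 2 (-2.69), and that in IVO MII also without IVO MII replicate 1 (-2.15) and with the length offset (-1.92). Without IVO MII replicate 2 the latter was -3.50. PSMC6, the ATPase outside the name rule, stood at 4.63 and 7.44 in GV, 4.37 and 7.90 in IVM MII, with 1.39 and 1.19 in IVO MII. Its GV and IVM MII ranges overlapped and both lay above IVO MII. It was 4.74-fold higher in IVM MII than in IVO MII (2.25 ± 0.40, adjusted p = 0.00222) and fell by 2.22 ± 0.40 in IVO MII against GV, where the length offset gave -1.45. Exons of PSMC5 overlap those of FTSJ3 on the opposite strand over 10.4% of their length, and exons of PSMC2 those of DNAJC2 over 4.27%. Counting used no strand option, so reads there cannot be assigned to either gene.

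Of the 10 non-ATPase subunits, PSMD1, PSMD3 and PSMD12 rose in IVM MII against GV, and PSMD1, PSMD3 and PSMD11 in IVO MII against GV. PSMD2, PSMD4, PSMD8, PSMD13 and PSMD14 fell in both. PSMD3 (chromosome 16, 51596914 to 51614993), a lid subunit, stood at 2.55 and 2.33 in GV, 14.9 and 5.77 in IVM MII, with 12.3 and 20.5 in IVO MII, rising by 2.08 ± 0.43 (edgeR adjusted p = 0.00204) and 2.75 ± 0.44 (adjusted p = 2.60e-04). The IVM MII libraries differed from each other, and without IVM MII replicate 1 the increase was 1.27. PSMD1 (chromosome 12, 120864819 to 120988822), the large scaffold subunit of the base, stood at 76.7 and 83.5 in GV, 169 and 172 in IVM MII, with 302 and 284 in IVO MII. Its groups did not overlap, and it rose by 1.09 ± 0.21 in IVM MII and 1.87 ± 0.21 in IVO MII, calls held in every alternative. PSMD12, a lid subunit, rose by 0.63 ± 0.22 in IVM MII, from 39.6 and 37.8 to 57.6 and 62.2, and was at 52.9 and 42.8 in IVO MII (0.31 ± 0.22). That call ended without either GV replicate (0.66 and 0.60), without either IVM MII replicate (0.71 and 0.57), with the strict filter (0.35) and with the length offset (0.48). PSMD11, a lid subunit, rose by 0.88 ± 0.26 in IVO MII, from 132 and 198 to 260 and 348, with 264 and 232 in IVM MII (0.59 ± 0.26, adjusted p = 0.0767). Its call in IVO MII ended without GV replicate 1 (0.62), without IVO MII replicate 2 (0.66) and with the strict filter (0.55). It was called in IVM MII without GV replicate 2 (0.91), with library totals (0.90) and with the length offset (1.00).

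The falling non-ATPases included ubiquitin handling subunits. PSMD4 (chromosome 1, 100733354 to 100743635), a ubiquitin receptor of the base, stood at 60.9 and 108 in GV, 14.2 and 11.9 in IVM MII, with 12.02 and 16.0 in IVO MII, with log2 fold changes of -2.69 ± 0.30 and -2.59 ± 0.30. PSMD14 (chromosome 12, 50026538 to 50136412), the lid metalloprotease that removes ubiquitin from substrates, stood at 79.6 and 87.7 in GV, 16.4 and 24.3 in IVM MII, with 14.0 and 14.7 in IVO MII, with log2 fold changes of -2.04 ± 0.25 and -2.54 ± 0.25. PSMD7, the lid subunit with which PSMD14 forms a dimer, was called in neither comparison. It stood at 80.4 and 108 in GV, 96.7 and 109 in IVM MII, with 95.9 and 89.0 in IVO MII, with values of 0.13 ± 0.22 and -0.02 ± 0.22 (edgeR adjusted p = 0.645 and 0.933), though the length offset called it higher in IVO MII (0.58). PSMD8, a lid subunit, stood at 34.3 and 79.9 in GV, 6.78 and 6.82 in IVM MII, with 3.90 and 4.75 in IVO MII. It fell, with log2 fold changes of -3.07 ± 0.36 and -3.72 ± 0.38. Its GV libraries lay apart, and without GV replicate 2 the values were -2.33 and -2.98. PSMD13, a lid subunit, fell, with log2 fold changes of -2.12 ± 0.32 and -2.99 ± 0.34, from 21.7 and 29.3 to 6.25 and 5.48 in IVM MII, with 4.21 and 2.24 in IVO MII. Of its exon bases, 12.4% overlap SIRT3 on the opposite strand. PSMD2, the second scaffold subunit of the base, fell, with log2 fold changes of -1.27 ± 0.24 and -1.34 ± 0.25, from 24.9 and 28.7 to 11.8 and 10.3 in IVM MII, with 9.70 and 11.5 in IVO MII. In all 5 of these genes the MII libraries lay below both GV libraries, and both calls held in every alternative.

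The 7 assembly chaperones help the rings and the base to form and leave the finished particle. They held 4 of the 9 calls between the MII groups, 3 higher in IVM MII and 1 lower. That is 57.1% of the 7 genes, beside 24.6% of all tested genes. Of these 4 calls, only those of PSMD10 and PSMG2 held in every alternative. PSMD10 (chromosome X, 105190565 to 105198404), also called gankyrin, is a chaperone of the base that binds PSMC4. It stood at 281 and 266 in GV, 305 and 382 in IVM MII, with 21.7 and 44.6 in IVO MII. The IVM MII libraries lay above GV, and the IVO MII libraries far below both. PSMD10 was 10.4-fold higher in IVM MII than in IVO MII, with a log2 fold change of 3.37 ± 0.33 (edgeR adjusted p = 5.77e-05). Against GV it was at 0.33 ± 0.30 in IVM MII (adjusted p = 0.385) and fell by 3.04 ± 0.33 in IVO MII (adjusted p = 2.00e-05). Without IVO MII replicate 2 these differences were 4.00 between the MII groups and -3.66 against GV. Exons of PSMD10 overlap those of ATG4A on the opposite strand over 5.33% of their length. PSMD9 (chromosome 11, 125926553 to 125957985), another chaperone of the base, went the other way, at 212 and 330 in GV, 312 and 181 in IVM MII, with 557 and 591 in IVO MII. It was lower in IVM MII than in IVO MII (-1.22 ± 0.30, adjusted p = 0.0126) and rose by 1.09 ± 0.30 in IVO MII against GV. The first call ended without IVM MII replicate 2 (-0.88, adjusted p = 0.111) and with library totals (-0.97), and the second without GV replicate 1 (0.80). PSMD5, the third chaperone of the base measured, rose in both MII groups, from 4.46 and 3.25 to 6.83 and 7.33 in IVM MII (0.88 ± 0.29), and to 7.96 and 7.10 in IVO MII (0.97 ± 0.29). In IVM MII that call ended without GV replicate 2 (0.67) and without either IVM MII replicate (0.95 and 0.82), and in IVO MII without GV replicate 2 (0.75) or IVO MII replicate 1 (0.88).

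The PSMG genes encode chaperones of core particle assembly, where PSMG1 pairs with PSMG2 and PSMG3 with PSMG4. PSMG2 (chromosome 18, 73626285 to 73656778) stood at 19.98 and 19.0 in GV, 17.7 and 22.9 in IVM MII, with 8.42 and 7.20 in IVO MII. It was 2.60-fold higher in IVM MII than in IVO MII (1.38 ± 0.25, edgeR adjusted p = 0.00254). It fell by 1.32 ± 0.25 in IVO MII against GV, except with the length offset (-0.60), while its GV and IVM MII ranges overlapped. Its partner PSMG1 stood at 49.4 and 80.4 in GV, 60.0 and 78.8 in IVM MII, with 23.6 and 46.9 in IVO MII. PSMG1 was at 0.98 ± 0.33 between the MII groups (adjusted p = 0.0513), and DESeq2 called it higher in IVM MII (0.92, adjusted p = 0.0314). It was called also without either GV replicate (0.98 each) and without IVO MII replicate 2 (1.57). PSMG1 fell by 0.88 ± 0.33 in IVO MII against GV (adjusted p = 0.0386), a call that ended without GV replicate 2 (-0.49), without either IVM MII replicate (-0.88 each) and without IVO MII replicate 1 (-0.47), and the length offset put it at -0.11. PSMG3 stood at 10.8 and 16.1 in GV, 8.01 and 6.50 in IVM MII, with 2.36 and 4.21 in IVO MII, with no overlap between groups. It fell by 0.89 ± 0.33 in IVM MII, with a value of -2.03 ± 0.35 in IVO MII, and was 2.20-fold higher in IVM MII than in IVO MII (1.14 ± 0.34, adjusted p = 0.0311). Its partner PSMG4 stood at 12.7 and 18.7 in GV, 3.26 and 3.78 in IVM MII, with 4.10 and 5.40 in IVO MII, with log2 fold changes of -2.16 ± 0.31 and -1.72 ± 0.30. Between the MII groups PSMG4 was at -0.43 ± 0.30 (adjusted p = 0.322). The call of PSMG3 between the MII groups ended without IVO MII replicate 1 (0.79), without either IVM MII replicate (1.01 and 1.28) and with the length offset (0.91). That in IVM MII against GV ended without GV replicate 2 (-0.57), without either IVM MII replicate (-1.02 and -0.75), with library totals (-0.58) and with the length offset (-0.47).

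Among the activators, which open the core without the regulatory particle, PSME3 and PSME4 rose in both MII groups and PSME1 fell in both. PSME4, the large single-chain activator known from its role in spermatogenesis, stood at 8.48 and 7.00 in GV, 14.9 and 17.8 in IVM MII, with 16.5 and 16.8 in IVO MII. It rose by 1.08 ± 0.25 (edgeR adjusted p = 0.00411) and 1.11 ± 0.25 (adjusted p = 0.00267), in every alternative. PSME3, the nuclear activator, stood at 60.1 and 52.4 in GV, 99.1 and 76.2 in IVM MII, with 92.7 and 120 in IVO MII. It rose by 0.64 ± 0.23 and 0.92 ± 0.23. Its call in IVM MII ended without either GV replicate (0.74 and 0.54), without IVM MII replicate 1 (0.47), with RLE factors (0.59), with the strict filter (0.36) and with the compared libraries alone (0.55). PSME1, which with PSME2 forms the interferon-inducible activator, fell, with log2 fold changes of -1.88 ± 0.36 and -2.28 ± 0.37, from 8.61 and 9.94 to 2.24 and 2.78 in IVM MII, with 1.27 and 2.51 in IVO MII. Its exons are placed on chromosomes 7 and 8. PSME2 had 5 and 6 counts in GV, 0 in both IVM MII libraries, then 2 and 0 in IVO MII. PSMF1 (chromosome 10, 61426312 to 61473671), the proteasome inhibitor, stood at 47.6 and 44.1 in GV, 7.98 and 10.4 in IVM MII, with 11.7 and 10.97 in IVO MII. It fell 4.99-fold in IVM MII (-2.32 ± 0.24) and 4.05-fold in IVO MII (-2.02 ± 0.24), and both calls held in every alternative. PSMC3IP, the recombination factor, was at 3.00 and 3.92 in GV, 2.57 and 1.56 in IVM MII, with 1.89 and 1.36 in IVO MII. It fell in IVO MII by 1.09 ± 0.41 (adjusted p = 0.0372), a call that ended without either GV replicate (-1.27 and -0.88), without IVO MII replicate 2 (-0.87), with DESeq2 (-1.06), with library totals (-1.02) and with the length offset (-0.88). Of its exon bases, 14.6% overlap MLX on the opposite strand.

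Set against each other, the MII groups address how oocytes matured in vitro and in vivo differ. The 7 members higher in IVM MII were PSMA3, PSMA4, PSMB1, PSMB2, PSMD10, PSMG2 and PSMG3, and the 2 lower were PSMD1 and PSMD9. No ATPase in the list, inducible subunit, activator or inhibitor was called. PSMD10, PSMG2, PSMA3 and PSMB2 held their call in every alternative. PSMA3 was 3.39-fold higher (1.76 ± 0.26, edgeR adjusted p = 6.90e-04) and PSMB2 2.14-fold higher (1.10 ± 0.22, adjusted p = 0.00410). PSMB1 was 2.12-fold higher (1.09 ± 0.26), but not called without IVM MII replicate 2 (1.00, adjusted p = 0.0708) or IVO MII replicate 1 (0.88, adjusted p = 0.0791). PSMA4 was 2.02-fold higher (1.02 ± 0.26), but not called without IVM MII replicate 2 (0.63, adjusted p = 0.137), without IVO MII replicate 2 (0.97, adjusted p = 0.0544) or with the length offset (0.73). PSMD1 was 1.72-fold lower (-0.78 ± 0.21), but not called without either IVM MII replicate (-0.74 and -0.80), without IVO MII replicate 1 (-0.74) or with library totals (-0.56). In each of the 9 genes both libraries of one group lay above both of the other. That was also so in uncalled members such as PSMB3, PSMB4 and PSMD7, so it adds no support to the calls. In PSMA3, PSMA4, PSMB1 and PSMG3 the IVM MII libraries lay between those of GV and IVO MII, and in PSMB2 and PSMG2 the IVM MII and GV ranges overlapped. The summed cumulus and granulosa markers were also higher in IVM MII (78.9 to 80.2) than in IVO MII (34.2 to 51.3). Of the 4 tested, GREM1 (means of 29.0 against 4.01) and TNFAIP6 (27.9 against 13.6) were called higher in IVM MII. HAS2 (18.7 against 22.1) and FSHR (3.89 against 2.76) were not called. The part of these markers in the differences between the MII groups was not tested.

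**Figure D4:**
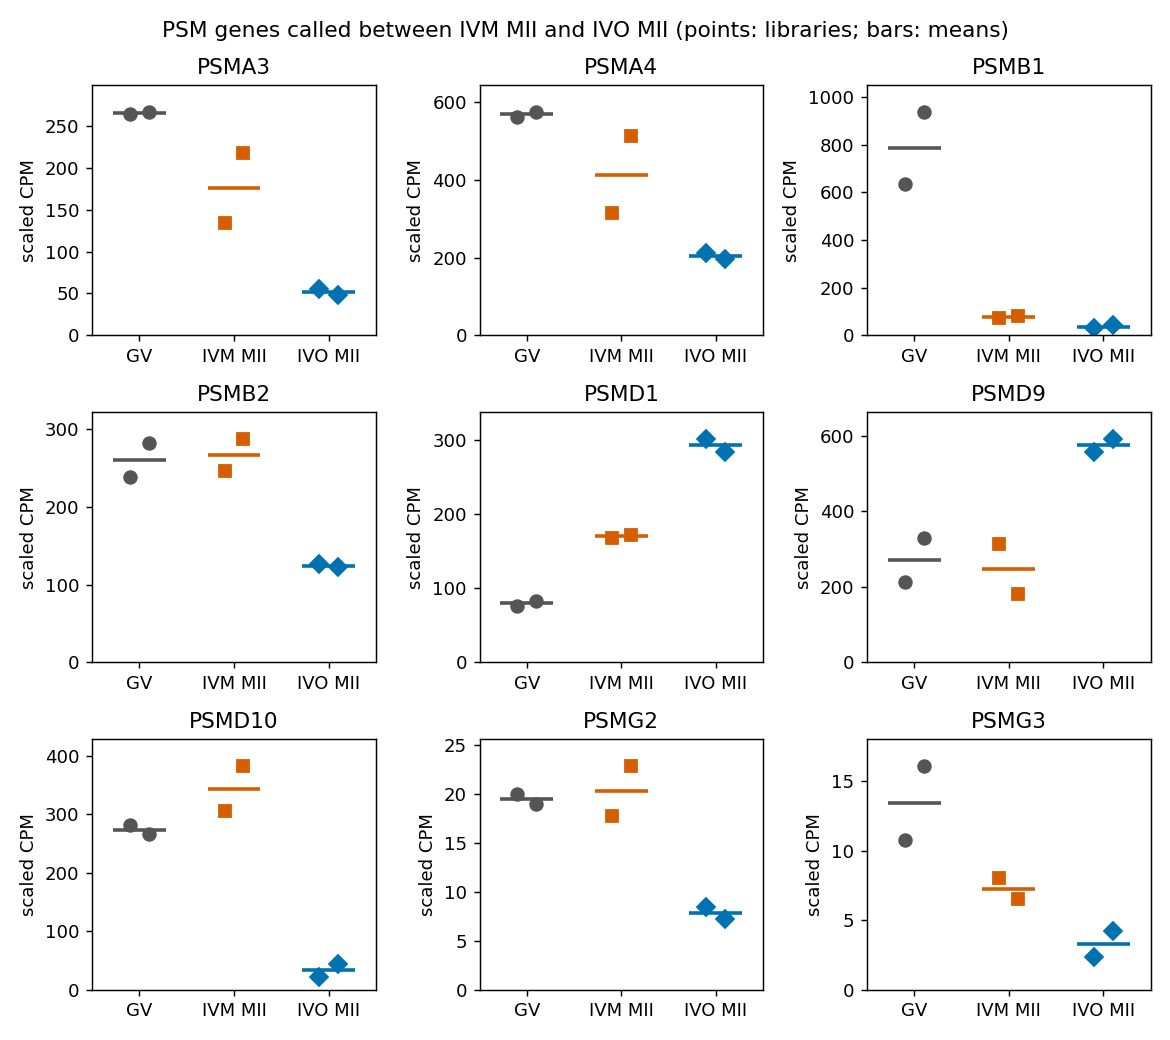
Level in scaled CPM (vertical axes, from 0) of the 9 proteasome genes called between IVM MII and IVO MII, with a point for each library and a bar for the mean of 2 libraries. PSMD10 is at 305 and 382 in IVM MII and at 21.7 and 44.6 in IVO MII, and PSMD1 and PSMD9 are highest in IVO MII.

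A list of 30 other genes of the pathway was counted in the same fits, and 29 of them were tested. It holds associated subunits and factors, assembly and transcription factors, ubiquitin shuttles with the VCP unfoldase, and ubiquitin genes with their activating enzymes. In IVM MII against GV 13 rose and 8 fell, in IVO MII against GV 12 rose and 13 fell, and between the MII groups 5 were higher in IVM MII and 2 lower. These are 72.4%, 86.2% and 24.1% of the 29, beside 50.3%, 58.5% and 24.6% of all tested genes, so the last is close to the background. SEM1, the small lid subunit that is listed under its older name SHFM1, stood at 38.3 and 37.2 in GV, 20.5 and 24.9 in IVM MII, with 2.40 and 2.95 in IVO MII. Its groups did not overlap, and it was 8.46-fold higher in IVM MII than in IVO MII (3.08 ± 0.26, edgeR adjusted p = 2.51e-05) and fell 14.1-fold in IVO MII against GV (-3.81 ± 0.27, or -2.88 with the length offset). PAAF1, a chaperone of the base, was 2.78-fold higher in IVM MII (43.1 against 15.5), and RAD23B, which carries ubiquitinated substrates to the proteasome, 3.59-fold higher (49.3 against 13.7). These 3 calls held in every alternative. Lower in IVM MII were ZFAND5, a proteasome activating protein, at 391 against 836 (-1.10 ± 0.24), and ADRM1, a ubiquitin receptor of the base, at 62.4 against 137 (-1.14 ± 0.39). The call of ZFAND5 ended without IVM MII replicate 1 (-0.99, adjusted p = 0.0502). That of ADRM1 (adjusted p = 0.0498) ended without IVM MII replicate 2 (-0.57) or either IVO MII replicate (-1.07 and -1.21) and under 4 other settings, and was -2.07 without IVM MII replicate 1.

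Against GV, UBB and RPS27A fell in both MII groups, and UBA6 and UBA1, enzymes that activate ubiquitin, rose in both. UBB, a polyubiquitin gene, was at 23056 in GV, 7744 in IVM MII and 6107 in IVO MII, log2 values of -1.57 ± 0.40 (edgeR adjusted p = 0.00649) and -1.92 ± 0.40, and without IVM MII replicate 2 the first was -2.36. RPS27A, which encodes ubiquitin fused to a ribosomal protein, fell from 53.5 to 10.98 and 9.22, with log2 values of -2.29 ± 0.31 and -2.54 ± 0.32. UBA6 rose from 29.4 to 96.4 and 125 (1.71 ± 0.27 and 2.08 ± 0.27), and UBA1, the main activating enzyme, from 20.6 to 51.9 and 74.5 (1.33 ± 0.26 and 1.85 ± 0.26). AKIRIN2, which brings proteasomes into the nucleus, rose from 586 to 1962 and 1391 (1.74 ± 0.30 and 1.25 ± 0.29). FAF1, a cofactor of VCP, fell from 10.7 to 2.61 and 2.40 (-2.03 ± 0.33 and -2.16 ± 0.33). ZFAND5 rose in IVO MII against GV, from 304 to 836 (1.46 ± 0.24, adjusted p = 3.14e-04).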

How the data were processed

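Per the labels' protocols, oocyte RNA was reverse transcribed from poly(A) tails by a template-switching method, PCR-amplified and tagmented, and DNBSEQ paired-end sequencing followed. Tools named in the submitters' processing notes are Bowtie2, fastp, FastQC, featureCounts and SAMtools. The authors deposited raw counts per gene, made by featureCounts 2.0.1 over exons of the macFas5 RefSeq annotation with no strand option, per the file headers. Bowtie2 does not split reads over introns, and counts shared with paralogs or processed pseudogenes are uncertain. No molecular identifiers are named, so levels are relative within a library and intervals and floors cover counting error only.

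The members and lists were chosen with earlier results of these data known. Counts were analysed in R 4.3.3 with edgeR 4.0.16: filterByExpr kept 15815 genes and left out 12349, TMM factors ran from 0.902 to 1.22, and the robust quasi-likelihood fit took in all 6 libraries (3 residual degrees of freedom, median prior 8.81, biological coefficient of variation 0.232). Tests were two-sided, with Benjamini-Hochberg adjustment over all tested genes at 0.05. Standard errors were taken from the log2 fold change and its F statistic. A later RefSeq gene table of another assembly served for names only. All members could be named, with their 6 library values for the larger called changes and for catalytic, inducible, chaperone, activator and inhibitor genes, and of the related list up to 3 genes per direction and comparison by adjusted p. The alternatives were DESeq2 1.42.0, RLE factors, library totals, no filter, a strict filter (10 CPM in 2 libraries), the 4 compared libraries alone, a replicate block, a length offset and each library left out, where a lone library is assumed to vary like the others. A block with the IVM MII numbers exchanged was chosen after seeing the data. The main edgeR fit was first tested on simulated data. Figures were drawn with matplotlib 3.10.9.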

Additional observations from a re-analysis of the deposited data

How the results depend on the processing

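Of 77 calls in the 3 comparisons, 1 of them of PSMC3IP, 0 changed sign in any alternative. Of the 10 higher and 18 lower in IVM MII against GV, 4 and 16 held in all alternatives, of the 14 and 26 in IVO MII against GV 6 and 19, and of the 7 and 2 between the MII groups 4 and 0. The number lower in IVM MII than in IVO MII was 4 with DESeq2, 5 with the gene length offset and 0 with library totals, against 2. Over all genes it was 2081, 2076 and 894, against 1635. With the strict filter the number higher was 5 in IVM MII against GV and 7 in IVO MII against GV. Over all genes kept by that filter it was 2268 and 2727, against 4053 and 4442 in the first fit. Leaving out 1 library each gave 4 to 8 higher and 1 to 2 lower between the MII groups, 5 to 10 higher and 16 to 18 lower in IVM MII against GV, and 8 to 14 higher and 22 to 25 lower in IVO MII against GV. The lowest of the first were without IVM MII replicate 2 (4 higher and 1 lower), and the lowest counts higher against GV were without GV replicate 1 (5 and 8). With library totals, the median over all tested genes went to 0.24 between the MII groups and to 0.35 in IVM MII against GV, from 0.02 and 0.06 on the log2 scale, and the share higher among all calls to 75.8% and 63.7%, from 58.0% and 50.9%. Signs that changed concerned values with no call in the first fit. PSMA4 in IVM MII against GV was 0.0255 with the length offset. PSMA1 there ran from -0.30 to 0.77 and ADRM1 from -0.0238 to 1.48 with a library left out. PSMD7 in IVO MII against GV was 0.0112 with DESeq2, 0.0538 with library totals and 0.58 with the length offset, and ran from -0.22 to 0.20 with a library left out. The cause of these changes was not tested.

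Replicates of the same number shared no link in the labels, so the numbers were not taken as pairs. Correlations of the deviations of replicate 1 from the group means were -0.20 between GV and IVM MII, 0.35 between GV and IVO MII and -0.19 between IVM MII and IVO MII. Their signs depend on the numbering within each group, so they cannot tell whether libraries of different groups are linked. With the replicate block, 8 members were higher and 2 lower between the MII groups, 10 and 17 in IVM MII against GV, and 14 and 26 in IVO MII against GV. Over all tested genes the block gave 2180 and 1545, 3982 and 3748, and 4345 and 4670. The block ended the call of PSMG3 in IVM MII against GV (adjusted p = 0.0516) and gave one for PSMG1 between the MII groups (1.05). With the IVM MII numbers exchanged in the block, the counts were 10 and 5, 12 and 19, and 14 and 26. Over all tested genes they were then 2845 and 2466, 4669 and 4264, and 4823 and 5111. The first fit gave 2260 and 1635, 4053 and 3908, and 4442 and 4816 over all tested genes. With 2 libraries a group, fold changes close to 1.5 rest on few degrees of freedom, and PSMB8, PSMB10, PSMB11 and PSME2 had too few counts to be tested.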
